A study of Mus musculus with 3 samples.

Results

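Transcript levels of the G1 cyclins and CDK inhibitors were read in primary mouse fibroblasts, wounded and then given the soluble MG and the MEK inhibitor PD0325901 for 5 h. The set holds 10 genes, chosen by name as the rows of the deposited count table called Ccnd1, Ccnd2, Ccnd3, Ccne1, Ccne2, Cdkn1a, Cdkn1b, Cdkn1c, Cdkn2a and Cdkn2b, of 43472 rows in all and of 20322 genes with reads. The rule uses names and no measured value, though the set was chosen with earlier results of these data known. The study tested how a micrograft (MG), the filtered soluble product of mechanically disrupted mouse skin, acts on scratched fibroblast cultures, and MEK was inhibited to block ERK signaling. The fibroblasts came from the tail tips of C57BL/6 mice, and all cells used here were wounded by a scratch, received the MG and received PD0325901. The 3 libraries are replicates 1, 2 and 3 of this condition, and the labels do not say whether they came from separate animals or cultures. Unwounded, untreated and MG-only cells were not analysed here, so no difference between conditions was computed and the values below are levels and differences between replicate libraries.

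Progression through G1 depends on cyclins that activate cyclin-dependent kinases (CDKs) and on inhibitors that hold these kinases back. D-type cyclins bind Cdk4 and Cdk6, and E-type cyclins bind Cdk2, and the active kinases phosphorylate the retinoblastoma protein and its relatives, which releases the E2F factors that switch on S phase genes. The inhibitors form a CIP/KIP family, which binds cyclin-CDK complexes broadly, and an INK4 family, which binds Cdk4 and Cdk6 alone. In fibroblasts, cyclin D1 is the classical sensor of mitogens acting through ERK, while the genes Cdkn2a and Cdkn2b are known to be switched on in long culture and under oncogenic stress.

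The INK4 genes are shown first, because Cdkn2a and Cdkn2b are neighbors and had the same order of libraries, together with Cdkn1a, the member with the highest level. Cdkn2a lies on chr4:89274471-89294653 and Cdkn2b on chr4:89306299-89311039 of GRCm38, both on the minus strand and 11645 bp apart. Cdkn2a makes Cdkn2a-201, which encodes the CDK inhibitor Ink4a, and Cdkn2a-202, which encodes Arf, an inhibitor of Mdm2 in another reading frame. Their first exons lie apart, at chr4:89281986-89282192 and chr4:89294334-89294653. The transcripts share 575 bp, which is 67.5% of Cdkn2a-201 and 64.2% of Cdkn2a-202, so a count per gene cannot separate Ink4a from Arf. Cdkn1a lies on chr17:29090976-29100727 on the plus strand. Promoter windows of RefSeq on GRCm38.p6 matched 6 of the 10 members with 9 windows, and the stretches printed here run up to the base before the first annotated exon. In order, they are the windows of Arf at chr4:89294654-89294869, of Ink4a at chr4:89282193-89282442 and of Cdkn2b at chr4:89311040-89311282, read from the minus strand, and the upstream and downstream starts of Cdkn1a at chr17:29090729-29090975 and chr17:29093519-29093768, read from the plus strand. Capitals mark each match, on either strand, to the motifs AP-1 (TGANTCA), CRE (TGACGTCA), E-box (CACGTG), GC box (GGGCGG), E2F (TTTNGCGC), the TATA box (searched as the letters TATAAA) and the CCAAT box (searched by the letters of its name).
Arf start: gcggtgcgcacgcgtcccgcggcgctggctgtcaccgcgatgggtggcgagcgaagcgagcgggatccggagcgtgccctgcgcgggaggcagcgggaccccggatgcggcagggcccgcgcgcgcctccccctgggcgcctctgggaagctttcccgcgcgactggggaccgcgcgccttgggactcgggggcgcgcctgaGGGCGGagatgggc
Ink4a start: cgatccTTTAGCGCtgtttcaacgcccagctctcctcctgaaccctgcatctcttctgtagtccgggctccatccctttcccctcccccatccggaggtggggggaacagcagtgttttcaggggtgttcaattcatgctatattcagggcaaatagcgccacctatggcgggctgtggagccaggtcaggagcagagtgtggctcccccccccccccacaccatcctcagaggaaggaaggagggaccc
Cdkn2b start: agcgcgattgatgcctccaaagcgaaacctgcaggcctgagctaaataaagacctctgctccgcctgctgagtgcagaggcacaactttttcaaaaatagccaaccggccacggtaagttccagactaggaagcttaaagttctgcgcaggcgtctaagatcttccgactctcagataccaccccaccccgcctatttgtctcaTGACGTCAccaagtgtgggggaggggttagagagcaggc
Cdkn1a upstream start: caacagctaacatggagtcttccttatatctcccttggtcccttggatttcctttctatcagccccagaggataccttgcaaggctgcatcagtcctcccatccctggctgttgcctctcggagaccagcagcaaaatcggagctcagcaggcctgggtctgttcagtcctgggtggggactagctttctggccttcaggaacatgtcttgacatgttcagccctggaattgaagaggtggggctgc
Cdkn1a downstream start: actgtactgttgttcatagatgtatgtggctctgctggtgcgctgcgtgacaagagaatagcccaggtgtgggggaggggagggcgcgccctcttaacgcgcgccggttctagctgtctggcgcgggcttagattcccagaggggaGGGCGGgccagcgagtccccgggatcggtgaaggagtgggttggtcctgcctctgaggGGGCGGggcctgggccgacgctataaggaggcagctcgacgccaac

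The printed stretch of the Arf start was 78.7% G and C and held a GC box, a motif found in 35.7% of 32851 windows of 300 bp. That of the Ink4a start was 60% G and C and held an E2F match, found in 1.38% of windows. The Cdkn2b stretch was 53.5% G and C and held a CRE match, found in 1.79% of windows, at -46 to -39 from its start. The downstream start of Cdkn1a held GC boxes at -104 to -99 and at -46 to -41. The upstream stretch matched none of the motifs searched, which did not include one for the factor p53. No window of a member held a match to AP-1 (7.81% of all windows), E-box (7.15%) or TATA (13.6%), whereas the CCAAT box (37.4%) occurred in the windows of Cdkn2a, Cdkn1b and Ccnd3. A match describes the letters in these windows and was not tested as a binding site.

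Values were deposited as normalized counts, which are reads on a gene divided by 1 size factor per library, and each value was a whole number of reads after division by the value of 1 read. Reads on genes came to 22540518 in replicate 1, 27037783 in replicate 2 and 17244505 in replicate 3. Detection required at least 10 normalized counts in each of the libraries, which 12204 genes and 9 of the 10 members reached. Pairs of libraries were compared by a two-sided exact binomial test on the reads with Benjamini-Hochberg adjustment over all genes tested, at a threshold of 0.05. This test asks whether 2 libraries differ by more than counting error. It says nothing of conditions, the 3 pairs share libraries, and the reads carried no molecular identifiers. Replicate 2 stood apart from the others. It was over 2-fold above both others at 5.34% of 13154 genes with a mean of at least 10 and over 2-fold below both at 5.09%, against 2.49% and 2.13% for replicate 1 and 1.31% and 2.52% for replicate 3. The fibroblast markers were detected in 8 of 8 cases, with sums of 345263, 371184 and 511183 normalized counts in replicates 1, 2 and 3. Of these, the proteoglycan gene Lum had 5073 normalized counts in replicate 1, 289 in replicate 2 and 1164 in replicate 3, and Dcn had 3661, 1723 and 3659. Both were more than 2-fold below the other libraries in replicate 2. Of 5 keratinocyte markers 1 was detected, Krt10, at 80.8, 39.5 and 32.0 normalized counts and more than 2-fold above both others in replicate 1, while Krt15 and Krt1 were at 0 in every library. Of 5 leukocyte markers 1 was detected, Lyz2, at 123, 62.7 and 601 normalized counts. Laptm5 had 1.74, 4.93 and 36.7, Tyrobp had 0, 2.11 and 15.4, Cd52 had 0.868, 0.705 and 9.48, and Ptprc had 1.74, 0.705 and 1.19. Apart from Ptprc, these markers were highest in replicate 3, and their sums were 128, 71.2 and 664. Of 5 endothelial markers 1 was detected, Egfl7, at 69.5, 53.6 and 49.8 normalized counts, and the sums of 90.3, 244 and 55.7 followed Tek, which had 6.95, 185 and 2.37. These markers were not tested for a part in the results on the cell cycle genes, and in such bulk samples fewer cells of a type and less RNA per cell cannot be told apart.

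The D-type cyclins were all detected, and Ccnd2 differed most between the libraries. Ccnd1, which encodes cyclin D1 (chr7:144929931-144939925), had 5962 normalized counts in replicate 1, 8059 in replicate 2 and 6916 in replicate 3, which average 6979 ± 1050 (SD, n = 3). Replicate 2 was the highest and replicate 1 the lowest, and Ccnd1 was 1.35-fold higher in replicate 2 than in replicate 1. Ccnd2, the gene of cyclin D2 (chr6:127125162-127152193), had 5004 normalized counts in replicate 1, 16296 in replicate 2 and 10299 in replicate 3, averaging 10533 ± 5650 (SD, n = 3). Replicate 1 was more than 2-fold below both others, at 3.26-fold below replicate 2 and 2.06-fold below replicate 3, and it was not called so with libraries scaled to their totals of reads. Without replicate 2 the mean of Ccnd2 was 7652 normalized counts. Ccnd3, encoding cyclin D3 (chr17:47505051-47599691), had 2512, 1861 and 2546 normalized counts, averaging 2306 ± 386 (SD, n = 3). Here replicate 2 was the lowest, and replicates 1 and 3 were not separated by the test (1.01-fold, adjusted p = 0.724, exact binomial test with Benjamini-Hochberg adjustment). Ccnd1 and Ccnd2 therefore had the order of replicate 2 over 3 over 1, which 22.5% of detected genes had, whereas Ccnd3 had the order of replicate 3 over 1 over 2, shared by 15.9%.

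**Figure D1:**
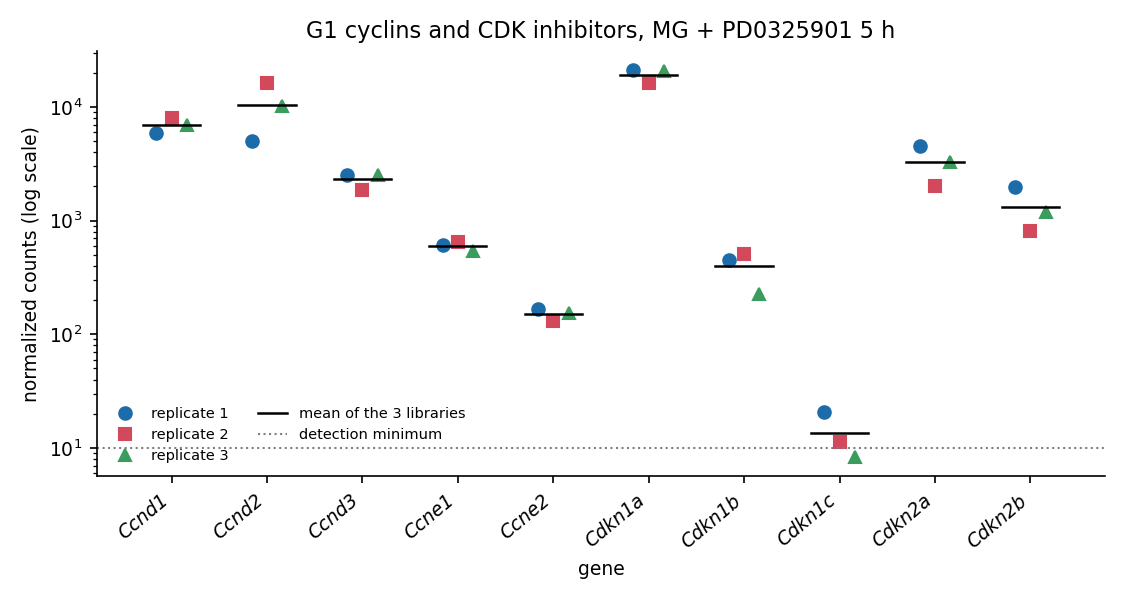
Normalized counts (log axis) of the 10 genes in replicates 1, 2 and 3 of the MG + PD0325901 condition, with the mean of the 3 libraries as a bar and the detection minimum of 10 as a dotted line. The points of Ccnd2 spread from 5004 to 16296, those of Ccne1 from 542 to 643, and Cdkn1c lies at the detection minimum.

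By the SD of log2(normalized count + 1) over the libraries, the E-type cyclins were the steadiest members. Ccne1, encoding cyclin E1, which activates Cdk2 at the entry to S phase (chr7:38097984-38107534), had 615 normalized counts in replicate 1, 643 in replicate 2 and 542 in replicate 3. Its highest library was 1.19-fold above its lowest. Replicates 1 and 2 could not be separated (adjusted p = 0.429, exact binomial test with Benjamini-Hochberg adjustment), and replicate 2 was above replicate 3 (adjusted p = 0.00489). Ccne2, the gene of cyclin E2 (chr4:11191351-11204779), had 168, 130 and 155 normalized counts in replicates 1, 2 and 3. Only replicates 1 and 2 differed beyond counting error among its 3 pairs, by 1.29-fold (adjusted p = 0.0231, exact binomial test with Benjamini-Hochberg adjustment). Within each library Ccne1 made up 83.8% ± 2.44 (SD, n = 3) of the E-type cyclins in normalized counts per kb of exon.

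Among the CIP/KIP inhibitors the levels ran from the highest to the lowest of the set. Cdkn1a, the gene of p21 and a classical target of p53, had 21154 normalized counts in replicate 1, 16145 in replicate 2 and 20673 in replicate 3, averaging 19324 ± 2764 (SD, n = 3). Replicate 2 was the lowest and lay 1.31-fold below replicate 1, while replicates 1 and 3 differed by 1.02-fold (adjusted p = 0.0411, exact binomial test with Benjamini-Hochberg adjustment), a call that was lost with TMM factors and with no minimum of reads. Cdkn1b encodes p27, which is degraded through the ubiquitin ligase subunit Skp2 (chr6:134920401-134925513). Its level was 453 normalized counts in replicate 1, 510 in replicate 2 and 225 in replicate 3. Replicate 3 was more than 2-fold below both others, at 2.01-fold below replicate 1 and 2.27-fold below replicate 2, whereas replicates 1 and 2 were not separated (adjusted p = 0.0576, exact binomial test with Benjamini-Hochberg adjustment). Replicate 3 was also the shallowest library and the one with the highest sum of leukocyte markers, and the part of either in the level of Cdkn1b was not tested.

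Cdkn1c, an imprinted gene that encodes p57 (chr7:143458339-143461050), was counted with 24, 16 and 7 reads in replicates 1, 2 and 3. These are 20.8, 11.3 and 8.30 normalized counts, with exact Poisson 95% intervals of 13.4 to 31.0, 6.44 to 18.3 and 3.34 to 17.1 that cover counting error only. The intervals overlap, replicate 3 fell under the detection minimum, and none of the 3 pairs of libraries passed the exact test (adjusted p from 0.0546 to 0.732, Benjamini-Hochberg). A difference in Cdkn1c between the libraries was not detectable at this depth.

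Both INK4 genes of the set were highest in replicate 1 and lowest in replicate 2. Cdkn2a had 4526 normalized counts in replicate 1, 2025 in replicate 2 and 3296 in replicate 3, averaging 3282 ± 1250 (SD, n = 3). It was 2.23-fold higher in replicate 1 than in replicate 2 and 1.37-fold higher in replicate 1 than in replicate 3. Cdkn2b, encoding the Cdk4 and Cdk6 inhibitor p15, had 1972, 810 and 1190 normalized counts, averaging 1324 ± 593 (SD, n = 3). It was 2.44-fold higher in replicate 1 than in replicate 2 and 1.66-fold higher in replicate 1 than in replicate 3. The order of replicate 1 over 3 over 2 was found in 21.4% of detected genes, and Cdkn1a and Ccne2 had it too. While the level of each INK4 gene moved by more than 2-fold, their ratio moved little. The log2 ratio of Cdkn2a to Cdkn2b per kb was 1.44, 1.57 and 1.72 in replicates 1, 2 and 3, averaging 1.58 ± 0.14 (SD, n = 3), and Cdkn2a made up 74.9% ± 1.77 (SD, n = 3) of their sum per kb.

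**Figure D2:**
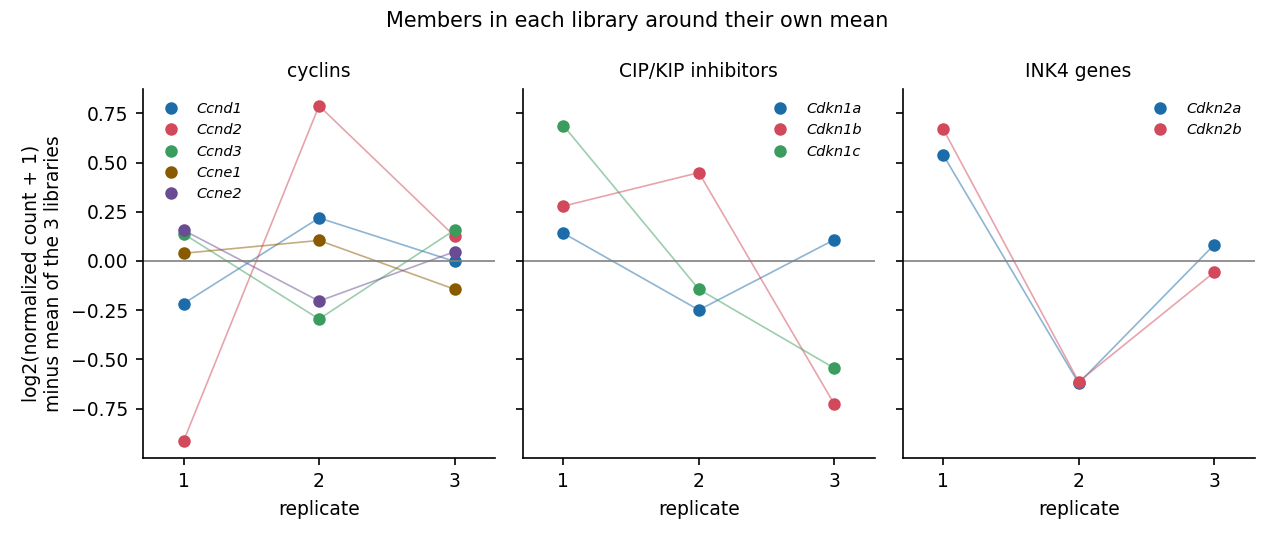
Difference of each gene in each replicate from its own mean over the 3 libraries, on the log2(normalized count + 1) scale, for cyclins, CIP/KIP inhibitors and INK4 genes. Lines join the points of 1 gene only to guide the eye. The lines of Cdkn2a and Cdkn2b run side by side, and those of Ccnd2 and Ccnd3 cross.

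All 10 members had enough reads for each pair. In replicate 1 against replicate 2, 5 members were higher in replicate 1 (Ccnd3, Ccne2, Cdkn1a, Cdkn2a and Cdkn2b), where 33.1% of all genes tested were, and 2 were higher in replicate 2 (Ccnd1 and Ccnd2), where 36% were. In replicate 1 against replicate 3, 4 were higher in replicate 1 (Cdkn1a, Cdkn1b, Cdkn2a and Cdkn2b), beside 25.5% of all genes, and Ccnd1 and Ccnd2 were higher in replicate 3, beside 26.5%. In replicate 2 against replicate 3, 4 were higher in replicate 2 (Ccnd1, Ccnd2, Ccne1 and Cdkn1b), beside 32.1%, and 4 were higher in replicate 3 (Ccnd3, Cdkn1a, Cdkn2a and Cdkn2b), beside 30.5%. Calls were thus common among the members, as they were among all genes. When a difference of more than 2-fold was also required, 3, 2 and 1 members remained in the pairs of replicates 1 and 2, 1 and 3, and 2 and 3. In the first pair Cdkn2a and Cdkn2b were higher in replicate 1, as 11% of all genes tested were, and Ccnd2 in replicate 2, beside 9.61%. In the second, Cdkn1b was higher in replicate 1, beside 5.71%, and Ccnd2 in replicate 3, beside 3.69%. In the last, Cdkn1b was higher in replicate 2, beside 9.33%, and no member in replicate 3, beside 7.29%. The highest library was more than 2-fold above the lowest for 4 of the 9 detected members (Ccnd2, Cdkn1b, Cdkn2a and Cdkn2b), against 22% of all detected genes. Over the genes averaging 10 or more, Ccnd2 was the only member for which replicate 1 was more than 2-fold below both others, as for 2.13% of genes. Cdkn1b was the only one for which replicate 3 was, as for 2.52% of genes.

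The SD of log2(normalized count + 1) over the 3 libraries was 0.13 for Ccne1, 0.18 for Ccne2, 0.22 for Ccnd1 and for Cdkn1a, and 0.26 for Ccnd3. It was 0.58 for Cdkn2a, 0.64 for Cdkn2b and for Cdkn1b, and 0.86 for Ccnd2. The median over the 9 detected members was 0.26, beside 0.30 over all 12204 detected genes, and it was 0.15 without replicate 2. Ccnd2 lay above the 90th percentile of detected genes of like level, which was 0.63, and so did Cdkn2b and Cdkn2a, with percentiles of 0.53 and 0.55. Cdkn1b lay under its own, which was 0.70. The biological coefficient of variation of edgeR estimates the spread between libraries beyond counting error. Each gene's value is drawn toward the trend of all genes at its level. It was 38.3% for Ccnd2, 34.8% for Cdkn1b, 32.6% for Cdkn2b and 30.7% for Cdkn2a, with trends of 26.8%, 31.8%, 25.8% and 26.0%. For Ccne1 and Ccne2 it was 24.8% and 34.1%, with trends of 29.3% and 40.6%. Ccnd3, Ccnd1 and Cdkn1a had 23.5%, 23.6% and 23.9%, with trends of 25.7%, 26.6% and 27.0%, lower than those of the E-type cyclins. Each value is drawn toward its trend, so this measure cannot rank the members by their own spread.

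**Figure D3:**
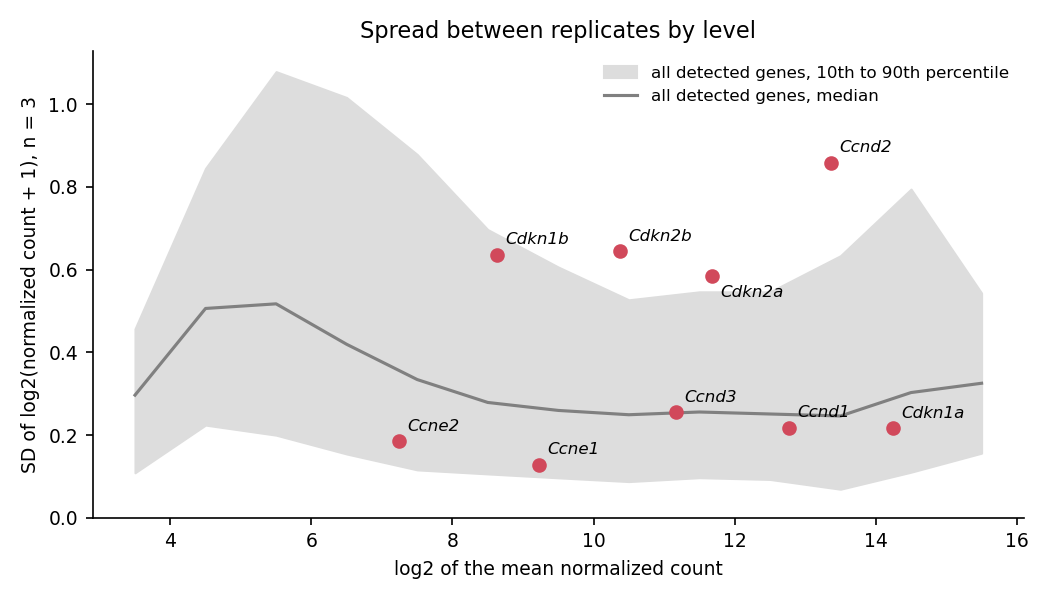
SD of log2(normalized count + 1) over the 3 libraries against the log2 of the mean normalized count for the 9 detected members (points), with the median (line) and the 10th to 90th percentiles (grey) of all detected genes. Ccnd2 at 0.86, Cdkn2b at 0.64 and Cdkn2a at 0.58 lie above the grey area, and Ccne1 at 0.13 lies low in it.

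Levels of the members were compared with each other per length, as normalized counts per kb of the union of annotated exons. Cdkn1a was the highest in each library, at 5439 ± 778 (SD, n = 3) normalized counts per kb, followed by Cdkn2a at 2801 ± 1067, Ccnd1 at 1482 ± 223, Ccnd2 at 1119 ± 600 and Cdkn2b at 952 ± 426. Lower levels per kb were those of Ccnd3 at 263 ± 44.0, Ccne1 at 225 ± 19.7, Cdkn1b at 87.0 ± 33.1, Ccne2 at 43.2 ± 5.43 and Cdkn1c at 6.61 ± 3.21. Neighbors in this order did not overlap between libraries except for Ccnd1 and Ccnd2, Ccnd2 and Cdkn2b, and Ccnd3 and Ccne1. The gap between Cdkn2a and Ccnd1 was narrow, since the lowest library of Cdkn2a had 1728 and the highest of Ccnd1 had 1711 normalized counts per kb. Genes that are not neighbors in the mean order also changed places within a library. In replicate 2 Ccnd2 lay just above Cdkn2a, at 1732 against 1728 normalized counts per kb. In replicate 1 Cdkn2b lay above Ccnd1, at 1419 against 1266. The order of the D-type cyclins depended on the length used. Ccnd2 and Ccnd3 have exon unions of 9.41 and 8.78 kb but coding transcripts that average 2.24 and 1.04 kb, and by the mean coding transcript the levels were 4710 ± 2526 normalized counts per kb for Ccnd2, 2212 ± 370 for Ccnd3 and 1866 ± 281 for Ccnd1 (SD, n = 3). Cdkn1a stayed the highest and Cdkn1c the lowest by either length.

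**Figure D4:**
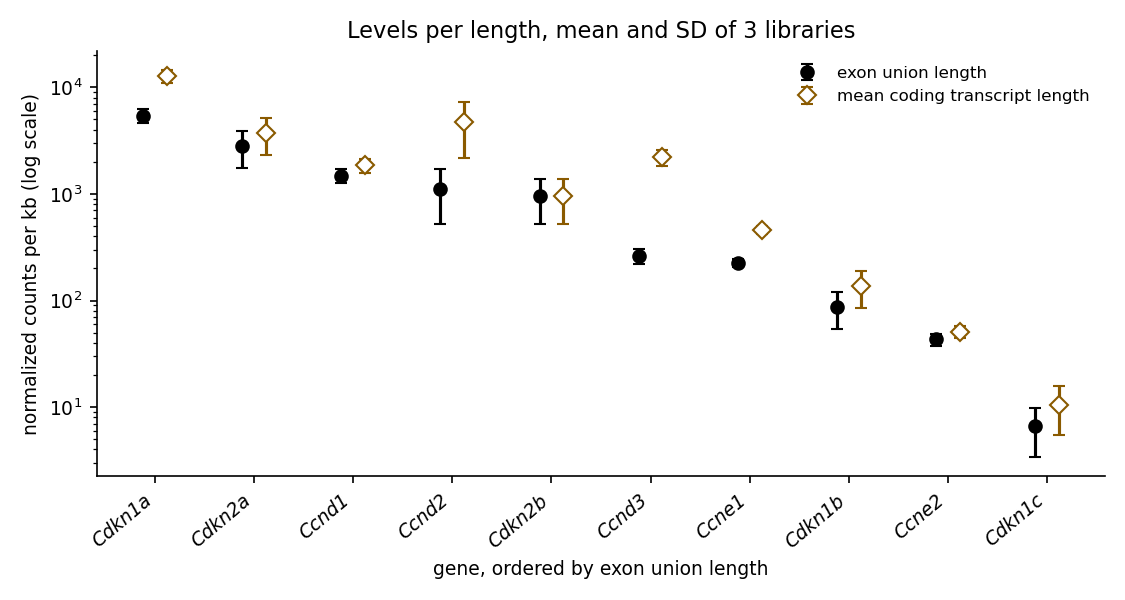
Levels of the 10 genes in normalized counts per kb (log axis), as mean and SD of 3 libraries, by the union of exons (filled circles) and by the mean coding transcript (open diamonds). Cdkn1a lies highest and Cdkn1c lowest by both lengths, and Ccnd2 and Ccnd3 move the most between them.

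Within the D-type cyclins, the share per kb of exon union held by Ccnd2 was 25.5%, 47.4% and 38.4% in replicates 1, 2 and 3, that of Ccnd1 was 60.7%, 46.8% and 51.5%, and that of Ccnd3 was 13.7%, 5.80% and 10.2%. By this length Ccnd2 lay close to Ccnd1 in replicate 2 and below it in the others. By the mean coding transcript, Ccnd2 lay above Ccnd1 in every library, with shares of 35.9%, 64.9% and 51.8% against 25.5%, 19.2% and 20.8% for Ccnd1 and 38.6%, 15.9% and 27.5% for Ccnd3. The share of Ccnd2 was highest in replicate 2 and lowest in replicate 1 by either length. The summed level per kb of the D-type cyclins was 2084, 3656 and 2853 normalized counts in replicates 1, 2 and 3, highest in replicate 2, and that of the E-type cyclins was 279, 279 and 248. The summed levels of the inhibitors ran the other way. The sum per kb was 6064, 4662 and 5872 normalized counts for the CIP/KIP genes, of which Cdkn1a made up 98.3% ± 0.807 (SD, n = 3), and 5280, 2310 and 3669 for Cdkn2a and Cdkn2b, so replicate 2 was the lowest in both. These sums add 2 or 3 genes each and carry no test. Single genes did not all follow the sums. The inhibitor gene Cdkn1b was at its highest in replicate 2, though not separated from replicate 1, and the cyclin gene Ccnd3 was at its lowest there.

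Overlapping genes limit some of these values, because the setting of the counting for strand is not given in the sources used here. The paper names a stranded library kit (Illumina TruSeq Stranded mRNA), so what is unknown is whether the counting used strand. On the opposite strand, Ccnd1 shares 1100 bp of exon with LTO1, Ccnd2 shares 372 bp with Gm43126 and 368 bp with 9330179D12Rik, and Ccnd3 shares 361 bp with Bysl. Ccne2 shares 609 bp with Ints8, Cdkn1a shares 273 bp with AC167363.2 and Cdkn1c shares 625 bp with Gm44732. If strand was not used, reads from these stretches cannot be told apart from those of the partner. Ccne1, Cdkn1b, Cdkn2a and Cdkn2b share no exon with another annotated gene.

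The kinases and further inhibitors of the same step were read beside the members. Cdk4, the main partner of the D-type cyclins, had 3073 normalized counts in replicate 1, 3943 in replicate 2 and 3094 in replicate 3 and was highest in replicate 2, by 1.28-fold over replicate 1. The log2 ratio of Ccnd1 to Cdk4 per kb was 0.42, 0.50 and 0.63. Both genes were highest in replicate 2, and between replicates 1 and 3 Ccnd1 was called and Cdk4 was not (adjusted p = 0.857, exact binomial test with Benjamini-Hochberg adjustment). In contrast, the log2 ratio of Cdkn2a to Cdk4 per kb was 2.03, 0.51 and 1.56, lowest in replicate 2. By the mean coding transcript the ratio of Ccnd1 to Cdk4 turned to a mean of -0.56. Cdk6, the alternative partner, was low, at 54.7, 60.6 and 26.1 normalized counts, with replicate 3 more than 2-fold below both others as for Cdkn1b. Cdk2, the partner of the E-type cyclins, had 423, 357 and 427 normalized counts. The list of catalytic partners held 6 genes, Cdk4, Cdk6, Cdk2 and the 3 subunits of the CDK-activating kinase, not all of which are catalytic. Of these 6 genes, 3 were higher in replicate 1 and 1 in replicate 2 in that pair. In the other pairs, 2 were higher in replicate 1 and none in replicate 3, and replicates 2 and 3 were higher for 2 each. These counts, and those of the lists that follow, stand beside the same shares of all genes called as those of the members. Of the 3 other inhibitors, Cdkn2c (Ink4c) had 250, 149 and 175 normalized counts, Cdkn2d (Ink4d) had 366, 342 and 260, and Cdkn3, a phosphatase of CDKs, had 94.6, 120.5 and 46.2. Cdkn2c had the order of Cdkn2a and Cdkn2b across the libraries, and Cdkn2d and Cdkn3 were lowest in replicate 3. Replicates 2 and 3 were not separated for Cdkn2c (adjusted p = 0.176, exact binomial test with Benjamini-Hochberg adjustment). All 3 were higher in replicate 1 than in replicate 3.

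Downstream of the kinases lie the pocket proteins and E2Fs, of which 12 of 13 were detected and 8 were highest in replicate 2, 66.7% beside 40.6% of all detected genes. Rb1, the retinoblastoma gene, had 210 normalized counts in replicate 1, 366 in replicate 2 and 200.3 in replicate 3, and its relatives Rbl1 and Rbl2 had 118, 178 and 111 and 388, 442 and 363. All 3 were above the other libraries in replicate 2 and not separated between replicates 1 and 3 (adjusted p from 0.478 to 0.770, exact binomial test with Benjamini-Hochberg adjustment). E2f1 had 731, 713 and 680.3 normalized counts and passed the test in no pair. E2f2, the member of the list that was not detected, had 28.7, 9.16 and 40.3, more than 2-fold below both others in replicate 2. In this list 3 genes were higher in replicate 1 and 6 in replicate 2 in the first pair, 2 in replicate 1 and 3 in replicate 3 in the second, and 5 in replicate 2 and 3 in replicate 3 in the last.

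Of 14 E2F targets that act in S phase, such as the Mcm helicase genes, 11 were highest in replicate 2 (78.6%, beside 40.6% of all detected genes). Their median log2 difference of replicate 2 from the others was 0.52, against 0.03 over all detected genes. Against replicate 1, 11 were higher in replicate 2 and 1 was lower, and against replicate 3, 9 were higher and none was lower. Without replicate 2, 3 were higher in replicate 1 and 4 in replicate 3. The 7 genes of G2 and mitosis had a larger difference, with 6 highest in replicate 2 and a median log2 difference of 1.07. Mki67, the gene of the proliferation antigen Ki-67, had 829 normalized counts in replicate 1, 1485 in replicate 2 and 586 in replicate 3, and Top2a, the topoisomerase that untangles chromosomes in mitosis, had 1090, 2661 and 1159. Mki67 was highest in replicate 2 and lowest in replicate 3, and Top2a was more than 2-fold above both others in replicate 2. In replicate 3 all 7 were lower than in replicate 2, 6 of them by more than 2-fold, as 9.33% of all genes tested were, and 5 were lower than in replicate 1. The members did not follow these lists in one direction. In replicate 2, Ccnd1, Ccnd2, Ccne1 and the inhibitor Cdkn1b were at their highest, and Cdkn1a, Cdkn2a, Cdkn2b and the cyclin genes Ccnd3 and Ccne2 were at their lowest. Of these, Ccne1 and Cdkn1b were not separated from replicate 1 by the test, and Ccne2 was not separated from replicate 3. With 3 libraries no correlation was computed.

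**Figure D5:**
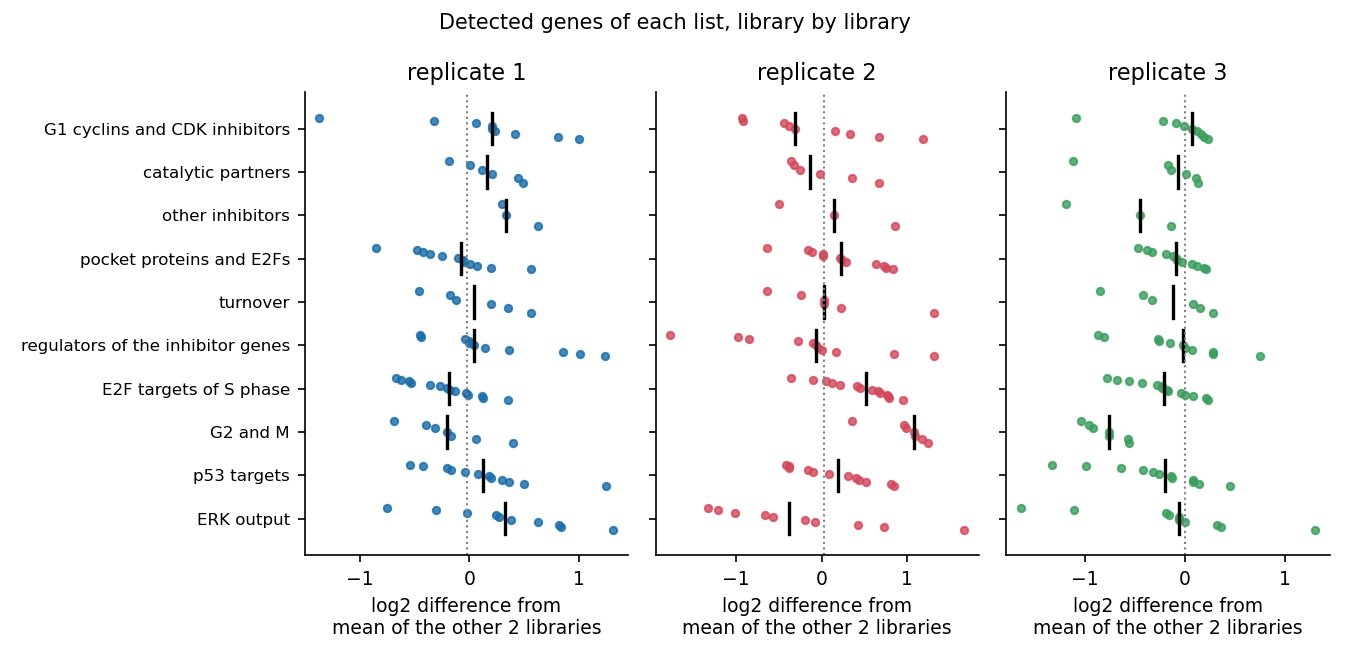
Log2 difference of each detected gene from the mean of the other libraries, in replicates 1, 2 and 3, for the G1 cyclins and CDK inhibitors and 9 further lists. Bars mark the median of each list and dotted lines that of all detected genes. In replicate 2 the medians lie at 0.52 for the E2F targets, 1.07 for G2 and M and -0.31 for the G1 cyclins and CDK inhibitors.

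The last lists hold genes of cyclin and inhibitor turnover and regulators of the inhibitor genes. Of the 6 genes in the turnover list, Skp2, which targets p27 for degradation, had 175, 398 and 147 normalized counts in replicates 1, 2 and 3. Replicate 2 was more than 2-fold above both others, and replicates 1 and 3 were not separated (adjusted p = 0.200, exact binomial test with Benjamini-Hochberg adjustment), whereas Cdkn1b was lowest in replicate 3. In this list 2 genes were higher in replicate 1 and 1 in replicate 2, 2 in replicate 1 and 1 in replicate 3, and 2 in replicate 2 and 1 in replicate 3. Of the 11 regulators of the inhibitor genes, Trp53, which encodes the activator of Cdkn1a, had 2564, 2488 and 2651 normalized counts, and Myc, which represses Cdkn1a and Cdkn2b, had 1309, 1257 and 1286. Myc passed the test in no pair, and Trp53 passed it only between replicates 2 and 3, at 1.07-fold (adjusted p = 0.0319, exact binomial test with Benjamini-Hochberg adjustment). Bmi1, a Polycomb repressor of Cdkn2a, had 425, 959 and 350 normalized counts, more than 2-fold above both others in replicate 2. Cbx7, another Polycomb gene that represses Cdkn2a, ran the other way, with 89.4, 40.2 and 59.3 normalized counts, highest in replicate 1 as Cdkn2a was. Ezh2 of the same list had 325, 490 and 228 normalized counts, highest in replicate 2 as Bmi1 was. Foxo1, a factor that activates Cdkn1b, had 822, 228 and 729 normalized counts and was more than 2-fold below both others in replicate 2. Foxo3 of this list had 1173, 1099 and 1029 normalized counts, with no library more than 2-fold from both others. Id1, an antagonist of the Ets factors that activate Cdkn2a, had 890, 318 and 441 normalized counts and was more than 2-fold above both others in replicate 1. In this list 5 were higher in replicate 1 and 3 in replicate 2, 7 in replicate 1 and 2 in replicate 3, and 3 in replicate 2 and 4 in replicate 3.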

How the data were processed

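RNA-seq was analysed from 3 replicate libraries of 1 condition, mouse fibroblasts wounded and kept for 5 h with PD0325901 and the soluble MG. Per the labels and the paper's methods, the authors checked reads with FastQC 0.11.5, aligned them to mm10 with TopHat 2.0.13, handled alignments with SAMtools 0.1.19.24, counted reads per gene with HTSeq 0.5.3p3 and scaled them with DESeq. The deposited signal is this table of normalized counts, reads divided by 1 size factor per library. The gene annotation, the strand setting and the libraries behind the size factors are not given in the sources used here. The table holds 3 more columns of this kind, which match no sample of the labels and stayed out of every step.

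Divided by the value of 1 read, 100% of values were whole within a tolerance of 0.01, so reads were recovered. The size factors were 1.15, 1.42 and 0.844, and 3 reads, the limit that a count of 0 allows, equal 2.61, 2.11 and 3.56 normalized counts in replicates 1, 2 and 3. As all 3 libraries form 1 group, whole reads were used only for exact binomial tests between libraries (at least 10 reads in the pair) and for the edgeR 4.0.16 dispersions (R 4.3.3). No test between conditions was possible, and p-values measure only counting error between these samples, which may be technical replicates. Python 3.11.15 with numpy 2.4.6, pandas 2.3.3 and scipy 1.17.1 was used for the rest, and positions and lengths came from GENCODE M21. Log2 values had a pseudocount of 1.

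The 10 members, the 9 further gene lists and the marker lists were chosen with earlier results of these data known. All members were named. From the other lists the rule allowed the text to name preset central genes (Cdk4, Cdk6, Cdk2, Rb1, Rbl1, Rbl2, E2f1, Cdkn2c, Cdkn2d, Myc, Trp53, Mdm2, Skp2 and Mki67), the genes with the highest and lowest mean normalized count of each list, and those with 1 library more than 2-fold from both others. Not all of these are named. The markers Krt15, Krt1, Tyrobp, Cd52, Ptprc and Egfl7, and the regulators Ezh2 and Foxo3, were named after their values were seen. The scripts were tested on simulated data. Alternatives were other scalings (totals of reads and TMM), minimums, fold limits, pseudocounts and gene lengths, and each replicate left out. The scalings of the counts of libraries apart were added after seeing the data.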

Additional observations from a re-analysis of the deposited data

How the results depend on the processing

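The ranks of 5 members by level per kb moved with the length. By mean coding transcript, Ccnd1 moved from rank 3 to 5, Ccnd2 from 4 to 2, Ccnd3 from 6 to 4, Cdkn2a from 2 to 3 and Cdkn2b from 5 to 6. With no division by length, Ccnd2 ranked 2, Ccnd3 5, Cdkn2a 4 and Cdkn2b 6. With each replicate left out, Ccnd2 ranked 4 to 5 and Cdkn2b 4 to 5, and the moves came without replicate 2. By mean coding transcript, the mean log2 ratio of Ccnd2 to Ccnd1 turned from -0.55 to 1.19, that of Ccnd1 to Ccnd3 from 2.50 to -0.24 and that of Ccnd1 to Cdk4 from 0.51 to -0.56. The ratio of Ccne1 to Ccne2 moved from 2.39 to 3.18, Cdkn2a to Cdkn2b from 1.58 to 2.00 and Cdkn2a to Cdk4 from 1.37 to 0.38. The length used in the division is what these settings change. Requiring a difference over 2-fold took the calls from 7 to 3, 6 to 2 and 8 to 1 in the pairs of replicates 1 and 2, 1 and 3, and 2 and 3. The median SD of log2 was 0.15 to 0.32 with each replicate left out, 0.15 without replicate 2. Members with replicate 1 apart went from 1 to 3 at 1.5-fold and to 0 with totals of reads, and those with replicate 2 apart from 0 to 2 at 1.5-fold. With no minimum of reads, the calls between replicates 1 and 3 went from 6 to 5, since Cdkn1a had an adjusted p of 0.0541 (exact binomial test, Benjamini-Hochberg over 19139 genes). Of the tests of a member between libraries, 1 changed its call with TMM factors (Cdkn1a between replicates 1 and 3, log2 ratio 0.03) and 2 with totals of reads (Cdkn1b between replicates 1 and 2, -0.21, and Ccne1 between replicates 1 and 3, 0.25). No mean level moved by more than 1 SD under another scaling. Leaving out 1 of 3 libraries cannot move a mean by 1 SD, so this limit does not bear on the replicates left out. The mean of Ccnd2, 10533 normalized counts, was 13298, 7652 and 10650 without replicates 1, 2 and 3. Depth limits Cdkn1c, with 7 to 24 reads. No paired analysis was possible because all 3 libraries belong to 1 group.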

Other observations

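The p53 targets and the genes that report ERK output were read in the same libraries. All 12 p53 targets were detected. Ccng1, encoding cyclin G1, had 9520 normalized counts in replicate 1, 17080 in replicate 2 and 9565 in replicate 3, and Mdm2, the ligase of p53, had 6394, 5153 and 4800. Ccng1 was highest in replicate 2, where Cdkn1a was lowest, and was not separated between replicates 1 and 3 (adjusted p = 0.822, exact binomial test with Benjamini-Hochberg adjustment), while Mdm2 was highest in replicate 1. Of the list, 6 were higher in replicate 1 and 5 in replicate 2, 6 were higher in replicate 1 and 2 in replicate 3, and 8 were higher in replicate 2 and 4 in replicate 3. Known p53 targets thus differed in their order of libraries.

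All 10 genes of ERK output were detected in these MEK-inhibited cells. Dusp4, which encodes an ERK phosphatase, had 46.0 normalized counts in replicate 1, 101 in replicate 2 and 21.3 in replicate 3. Spry4, an inhibitor of the pathway, had 197, 142 and 415, and Phlda1 had 4607, 1787 and 3690. These 3 were highest in different libraries, with Dusp4 in replicate 2, Spry4 in replicate 3 and Phlda1 in replicate 1. Over the whole list, 6 genes were highest in replicate 1 (60%, beside 31.5% of all detected genes), 3 in replicate 2 and 1 in replicate 3. Replicate 2 was the lowest for 6 of the 10 (60%, beside 37.3%). In this list 6 were higher in replicate 1 and 3 in replicate 2, 7 in replicate 1 and 2 in replicate 3, and 2 in replicate 2 and 5 in replicate 3. No untreated cells were analysed here, so these values do not measure the effect of PD0325901.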
